A study of Homo sapiens with 96 samples.

Results

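Contractile genes and target genes of the transcriptional co-activators YAP and TAZ were followed in A375 cells, an established human melanoma line with a mutated BRAF kinase. The family was chosen by symbol, as MYLK, ACTA2, TAGLN, CNN1, MYL9 and TPM1 for the contractile apparatus and CCN1, CCN2, ANKRD1 and AMOTL2 for the YAP targets, which is 10 of the 44659 gene entries of the count table. All 10 symbols had an entry, and 8 passed the filter on low counts that was applied to the whole table. CNN1 and MYL9 did not pass it and were not tested.

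The series holds 96 QuantSeq libraries, each made from 500 ng of cytoplasmic RNA and sequenced near the 3′ end of polyadenylated transcripts. Cells were kept for 18 h in DMSO or in MAPKi, which is 500 nM vemurafenib (a BRAF inhibitor) with 500 nM cobimetinib (a MEK inhibitor), and then received vehicle, 100 µg/ml cycloheximide (CHX, a blocker of translation elongation), 25 µM triptolide (T, spelled tryptolide in the labels, a blocker of transcription) or both (TCHX), with CHX given 5 min before T. Harvest at 0, 1, 3 and 5 h gave 32 groups of 3 libraries, in which all cells were of the same line and the DMSO groups served as the untreated state. The labels give the 3 libraries of a group as replicates without stating whether they came from separate cultures, so the spread between them may be partly technical. Levels are given as CPM, which is counts as a share of the library total after TMM scaling, and they are compared between groups and not between genes.

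Contractile genes encode actin, tropomyosin, myosin light chains and their regulators, and many of them are controlled by serum response factor (SRF) and its actin-sensing co-activators, the MRTFs. YAP and TAZ are held in the cytoplasm by the kinases of the Hippo pathway, and when they enter the nucleus they bind TEAD factors at enhancers and promoters. CCN1, CCN2 and ANKRD1 are widely used as readouts of nuclear YAP and TAZ, and their transcripts are known to be made and lost fast. In melanoma, both programmes have been studied in the adaptation of cells to BRAF and MEK inhibition.

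Promoter windows are shown for the YAP targets and for MYLK, because the YAP targets rose together over the vehicle time course in DMSO and MYLK differed between pretreatments by a wide margin. RefSeq windows of GRCh38.p14, running from 250 bases before to 50 bases after a start site, were found for 7 of the 10 genes, and those of TAGLN, MYL9 and CCN1 are not shown. Capitals mark GGAATG, the core sequence that TEAD factors recognise, or its reverse complement CATTCC, and in MYLK also a CArG box, the sequence that SRF recognises. CCN2 lies at chr6:131951323-131951622, ANKRD1 at chr10:90921038-90921337, AMOTL2 at chr3:134374398-134374697 and MYLK at chr3:123620499-123620798, all on the minus strand and written 5′ to 3′ on that strand.
CCN2: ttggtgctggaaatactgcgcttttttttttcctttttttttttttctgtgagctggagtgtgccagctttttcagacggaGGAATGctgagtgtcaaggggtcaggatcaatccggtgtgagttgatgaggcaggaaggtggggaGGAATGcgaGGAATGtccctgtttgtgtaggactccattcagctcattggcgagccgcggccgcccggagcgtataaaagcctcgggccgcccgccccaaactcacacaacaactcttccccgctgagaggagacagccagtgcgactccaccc
ANKRD1: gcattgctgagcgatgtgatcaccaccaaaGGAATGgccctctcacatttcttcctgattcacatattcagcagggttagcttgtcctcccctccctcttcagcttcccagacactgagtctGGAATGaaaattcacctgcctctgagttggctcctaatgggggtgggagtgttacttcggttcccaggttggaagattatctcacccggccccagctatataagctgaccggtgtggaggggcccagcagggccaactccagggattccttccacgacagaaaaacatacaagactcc
AMOTL2: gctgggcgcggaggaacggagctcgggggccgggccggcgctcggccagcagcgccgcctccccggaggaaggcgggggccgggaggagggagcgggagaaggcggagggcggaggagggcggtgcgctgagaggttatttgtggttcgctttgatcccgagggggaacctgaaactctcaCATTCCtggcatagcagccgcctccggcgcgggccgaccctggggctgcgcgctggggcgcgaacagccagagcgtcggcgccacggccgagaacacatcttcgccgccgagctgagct
MYLK: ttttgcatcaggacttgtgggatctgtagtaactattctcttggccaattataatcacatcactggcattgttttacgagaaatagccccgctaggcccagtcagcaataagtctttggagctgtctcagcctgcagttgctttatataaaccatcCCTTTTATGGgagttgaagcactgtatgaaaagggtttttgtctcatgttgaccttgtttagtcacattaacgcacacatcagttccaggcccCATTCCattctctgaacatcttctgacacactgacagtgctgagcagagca

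The CCN2 window held GGAATG 3 times, starting at −169, −104 and −95 relative to the start site, and a TATAAA at −32. The ANKRD1 window held it 2 times, at −220 and −128, with an AP-1 type TGANTCA at −195, and the AMOTL2 window held CATTCC once at −69. Both strands were searched, and of 35116 RefSeq promoter windows of this length 14% held at least 1 match, 1.37% at least 2 and 0.128% at least 3. The ACTA2 window also held 1 match, at −183, and the MYLK window 1, at −1, whereas the TPM1 and CNN1 windows held none. The CArG box of the MYLK window started at −94, and 1.29% of all windows held such a box. Only exact matches, CC and GG around a run of A and T bases, were counted. A near match such as ccctatatgg in the ACTA2 window was therefore left out. This MYLK window lies 10.5 kb from the 3′ end of the gene and 264 kb from its 5′ end, at a start site within 500 bases of which 7 of the 57 annotated MYLK transcripts begin. The 3′ part of MYLK is known to give telokin, a small protein without the kinase domain, and a 3′ end assay cannot separate telokin transcripts from those of the kinase. A match is a sequence in a window and was not tested as a binding site.

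The first question was which of these genes differed after 18 h of MAPKi, before transcription or translation was blocked. In the vehicle arm at 0 h all 4 contractile genes that could be tested were higher in MAPKi than in DMSO, with MYLK at 56.4-fold, while the YAP targets split, with AMOTL2 higher, CCN2 lower and CCN1 and ANKRD1 not past the test. These are 5 genes higher and 1 lower of 8 tested, where 21.9% of all 14948 tested genes were higher and 24% were lower (quasi-likelihood test of edgeR with a threshold of 0.05 on the Benjamini-Hochberg adjusted p; 3 libraries a group). The tested contractile genes had a median of 2.44 on the log2 scale and the YAP targets one of −0.99, against 0.03 over all tested genes.

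MYLK, which encodes the kinase that phosphorylates the myosin regulatory light chain, had 7.68, 12.1 and 8.05 CPM in the DMSO libraries and 410, 669 and 489 CPM in the MAPKi libraries at 0 h. Every MAPKi library lay far above every DMSO library, and the log2 change was 5.82 with a standard error (SE) of 0.22 and an edgeR adjusted p of 7.14e-37. ACTA2, the smooth muscle α-actin, had 1.87, 0.940 and 2.75 CPM in DMSO and 7.27, 11.6 and 9.17 CPM in MAPKi, a log2 change of 2.27 (SE 0.42, edgeR adjusted p 5.4e-06). TAGLN, the actin-binding protein transgelin, went from 0.623, 0.470 and 1.17 CPM to 6.72, 5.37 and 2.70 CPM, a log2 change of 2.61 (SE 0.66, edgeR adjusted p 0.000656). The libraries of the pretreatments did not overlap for ACTA2 or TAGLN either, although both genes were low, with at most 3 counts in 2 and 12 of the 48 DMSO libraries, respectively. TPM1, the tropomyosin that winds along actin filaments, had 352, 318 and 261 CPM in DMSO and 422, 622 and 483 CPM in MAPKi. It showed the smallest rise of the 4 genes, 0.72 on the log2 scale (SE 0.13, edgeR adjusted p 6.34e-06), again without overlap.

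CNN1 (calponin, an inhibitor of actomyosin) and MYL9 (a myosin regulatory light chain) stayed near the limit of detection. CNN1 had 1 count in 1 of 48 DMSO libraries, and 56 counts in 16 of 48 MAPKi libraries with at most 10 in a library. MYL9 had no count in the 48 DMSO libraries and 7 counts in 3 of 48 MAPKi libraries. The libraries held 2381351 to 12520154 counts with a median of 7143396. At these depths a gene without a count in a library may still have had an expected count of up to 3. Neither gene passed the filter on low counts. In the CHX arm CNN1 had 6, 9 and 5 counts at 5 h and 6, 1 and 2 at 3 h in MAPKi and none in DMSO. In the fit without the filter this difference had an edgeR adjusted p of 0.00639, the 1 comparison in which that fit called CNN1 or MYL9. That fit set each gene's own spread aside, so the p does not reflect how far these few counts varied.

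**Figure D1:**
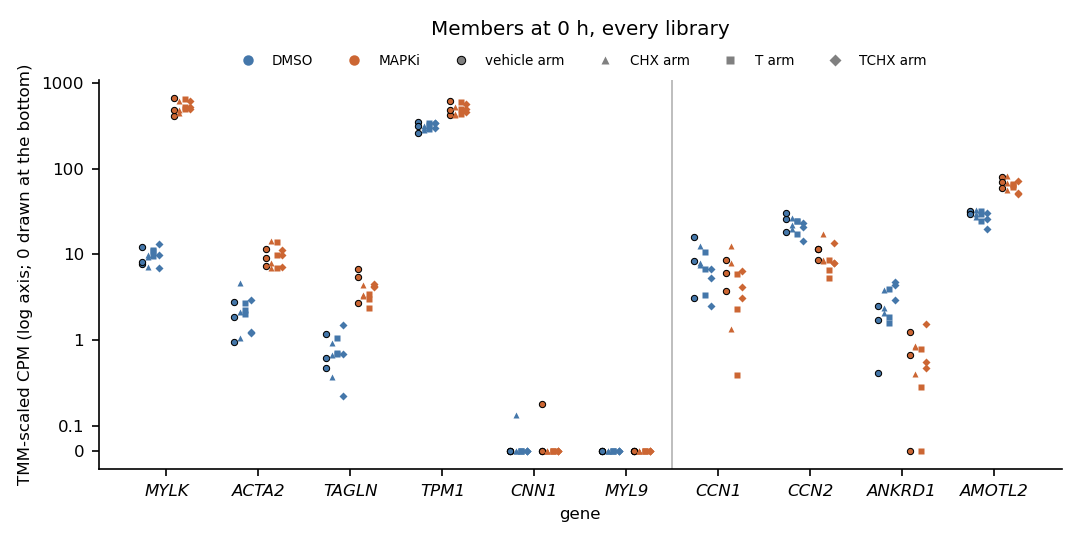
CPM (log axis, with 0 drawn at the bottom) of all 10 genes in every library at 0 h; each point is 1 library, its colour gives the pretreatment (DMSO or MAPKi) and its shape the arm it belongs to (n = 3 for each arm and pretreatment). In the vehicle arm MYLK lay at 7.68 to 12.1 CPM in DMSO and 410 to 669 CPM in MAPKi, whereas the CCN1 points overlapped and CNN1 and MYL9 lay at or near 0.

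AMOTL2, an angiomotin family protein that binds YAP and is also its target, had 31.3, 31.8 and 29.8 CPM in DMSO and 79.7, 69.1 and 60.1 CPM in MAPKi, without overlap (log2 change 1.17, SE 0.19, edgeR adjusted p 3.09e-07). CCN2, a secreted matricellular protein also called CTGF, had 18.3, 26.2 and 30.5 CPM in DMSO and 11.4, 11.6 and 8.49 CPM in MAPKi, so that here the MAPKi libraries were the lower ones (log2 change −1.28, SE 0.33, edgeR adjusted p 0.000967). CCN1, the related matricellular protein CYR61, had 3.11, 8.46 and 16.1 CPM in DMSO and 8.51, 6.09 and 3.78 CPM in MAPKi, groups that overlapped (log2 change −0.70, SE 0.72, edgeR adjusted p 0.448). The DMSO libraries of CCN1 spanned a wide range, and the 95% interval of its log2 change ran from −2.11 to 0.70. ANKRD1, an ankyrin repeat cofactor of muscle and stressed cells, had 0.415, 2.51 and 1.69 CPM in DMSO and 0, 1.25 and 0.674 CPM in MAPKi (log2 change −1.42, SE 0.72, edgeR adjusted p 0.0988). The ANKRD1 libraries overlapped as well, and the 6 calls named above held under every alternative processing tried.

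The same contrast was repeated at 0 h in the CHX, T and TCHX arms, whose cells were harvested as the inhibitors were added and whose 9 libraries per pretreatment are separate from those above. MYLK had a lowest, median and highest level of 6.97, 9.71 and 13.1 CPM in DMSO and 450, 522 and 650 CPM in MAPKi, a log2 change of 5.79 (SE 0.13, edgeR adjusted p 9.27e-54). ACTA2, TAGLN, TPM1 and AMOTL2 were again higher, by 2.15, 2.21, 0.65 and 1.18 on the log2 scale, and CCN2 was lower at −1.24. ANKRD1 passed the test here, from 1.56, 2.92 and 4.72 CPM (lowest, median and highest) in DMSO to 0, 0.560 and 1.52 CPM in MAPKi, a log2 change of −2.38 (SE 0.40, edgeR adjusted p 3.41e-07). CCN1 did not, at −0.44 (SE 0.47, edgeR adjusted p 0.426). In this contrast 33.4% of all tested genes were higher and 32.1% were lower, 65.5% in all.

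The contractile genes kept their direction at the later vehicle times, whereas the YAP targets did not move in parallel. Over the mean of the 4 vehicle times, in which 35.8% of tested genes were higher and 33.1% lower, the log2 changes were 5.57 for MYLK, 1.73 for ACTA2, 2.37 for TAGLN, 0.61 for TPM1, 0.90 for AMOTL2, −1.24 for CCN2 and −2.88 for ANKRD1, all past the edgeR test, and 0.02 for CCN1 (adjusted p 0.965). Among the 12 vehicle libraries of each pretreatment, MYLK ran from 7.68 to 18.5 CPM in DMSO and from 410 to 881 CPM in MAPKi. ACTA2 ran from 0.940 to 5.04 CPM in DMSO and from 5.38 to 12.9 CPM in MAPKi, and TAGLN from 0 to 1.48 CPM and from 1.78 to 9.79 CPM. No vehicle library of either pretreatment overlapped with the other for these 3 genes.

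At single times, CCN2 and ANKRD1 differed the most between hours. CCN2 had overlapping libraries at 1 h (log2 change −0.02, SE 0.29, edgeR adjusted p 0.972, with 47.3% of tested genes called in either direction), and lower in MAPKi, at −1.71 at 3 h (adjusted p 3.63e-07, 45.7% called) and −1.94 at 5 h (adjusted p 2.47e-08, 45.9% called). ANKRD1 was at −1.38 at 1 h (adjusted p 0.0549), −3.65 at 3 h (adjusted p 3.08e-10) and −5.07 at 5 h (adjusted p 1.65e-16). AMOTL2 was higher in MAPKi by 1.05, 0.44 and 0.95 at 1, 3 and 5 h, and its 3 h call was lost without replicate 1 (0.34, adjusted p 0.309) and without replicate 3 (0.40, adjusted p 0.0853). CCN1 passed the test at none of these times in the fit reported here, with 0.82 at 5 h (adjusted p 0.214), and without replicate 3 the 5 h value was 1.70 (adjusted p 0.0264). ACTA2, TAGLN and TPM1 were higher at each time, but some calls were lost when a replicate number was left out, which leaves fewer libraries in each group. TAGLN fell to 1.17 (adjusted p 0.258) at 1 h without replicate 2, to 1.34 (adjusted p 0.179) at 3 h without replicate 1 and to 1.87 (adjusted p 0.0518) at 5 h without replicate 1. ACTA2 was at 0.90 (adjusted p 0.161) at 3 h without replicate 2, at 1.07 (adjusted p 0.0788) at 3 h without replicate 3 and at 1.03 (adjusted p 0.116) at 5 h without replicate 3, TPM1 was at 0.34 (adjusted p 0.0593) at 1 h without replicate 2, and ANKRD1 at 1 h passed without replicate 1 (−2.30, adjusted p 0.00427).

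**Figure D2:**
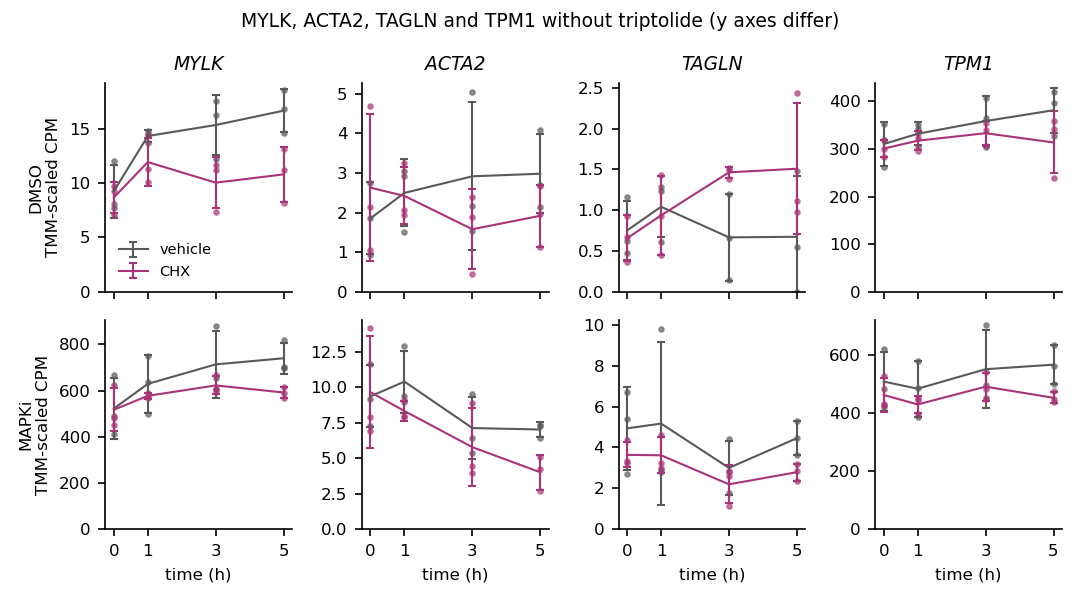
CPM of MYLK, ACTA2, TAGLN and TPM1 against hours (0 to 5 h) in the vehicle and CHX arms, for DMSO and MAPKi; points are libraries, lines join group means and bars are SD (n = 3), and the vertical axes differ between panels. MYLK stayed between 7.10 and 18.5 CPM in all 24 DMSO libraries and between 410 and 881 CPM in all 24 MAPKi libraries of these arms.

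Other genes of the same pathways did not move as a block at 0 h. Of 28 other contractile and SRF target genes tested (36 listed), 10 were higher and 8 lower in MAPKi, with a median log2 change of 0.05, where 21.9% of all tested genes were higher and 24% lower with a median of 0.03. MYL6, a non-regulatory myosin light chain, rose from 406 ± 10.9 to 765 ± 91.2 CPM (SD, n = 3; log2 change 0.91), whereas ACTN1, the α-actinin that cross-links actin, fell from 784 ± 29.4 to 150 ± 19.1 CPM (log2 change −2.39) and CSRP1 from 88.1 ± 13.5 to 38.9 ± 3.14 CPM (log2 change −1.18). ACTG1 was higher by 1.37, with a wide spread in MAPKi (17.7 ± 3.76 CPM in DMSO and 46.6 ± 36 CPM in MAPKi). CSRP2 was higher by 0.78, and SMTN, another smooth muscle protein, was lower at −1.09. Of 18 other YAP and TAZ target genes, 4 were higher and 7 lower, with a median of −0.08. LATS2, a Hippo kinase that is itself a YAP target, was higher (0.69), as were ARHGEF17 (1.20) and CCDC80 (0.86), while NT5E fell from 31.7 ± 8.67 to 4.55 ± 0.974 CPM (−2.79) and FJX1 (−2.51) and IGFBP3 (−1.33) were lower. All of these passed the edgeR test at an adjusted p of at most 0.0458.

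Among 22 Hippo pathway components and TEAD factors, 6 were higher and 7 lower in MAPKi (median −0.27). Of all tested genes, 21.9% were higher and 24% lower in this contrast. WWTR1, which encodes TAZ, fell from 942 ± 45.9 to 188 ± 4.45 CPM (SD, n = 3; log2 change −2.32, SE 0.06, edgeR adjusted p 6.36e-48), TEAD4 fell by 1.27 and WWC1 by 2.36 on the log2 scale, whereas the TEAD binding competitor VGLL4 rose from 53.2 ± 0.243 to 108 ± 9.20 CPM (1.02) and TEAD2 (1.11) and VGLL3 (2.85) were higher. The other CCN genes went up where they could be tested, with CCN3 at 46.9 ± 5.25 CPM in DMSO and 424 ± 28.3 CPM in MAPKi and CCN5 at 0.0692 ± 0.120 and 5.81 ± 2.51 CPM (SD, n = 3). Of 11 TGF-β ligands, receptors and SMAD factors, 2 (TGFB1 and TGFBR2) were higher and 4 lower, among them SMAD3 at −0.88.

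The libraries were checked against their labels with lists of marker genes. Of 12 tested MAPK output genes 12 were lower in MAPKi, with DUSP6 at 359 ± 54.6 CPM in DMSO and 1.07 ± 0.656 CPM in MAPKi (SD, n = 3). In this contrast at 0 h 21.9% of all tested genes were higher and 24% lower. Of 8 melanocyte lineage markers, none was without a count in either group, and their summed level was 906 to 1010 CPM in the DMSO and 2570 to 3710 CPM in the MAPKi libraries. Most of the difference in this sum was DCT, with 55 ± 7.95 and 2130 ± 523 CPM, and of the 7 markers tested 5 were higher and 1, S100B, was lower (302 ± 13.2 and 215 ± 20.2 CPM). Of 8 fibroblast markers, COL1A2, COL3A1, DCN and THY1 had no count in either group, and the sum was 4.98 to 7.52 CPM in DMSO and 8.22 to 8.95 CPM in MAPKi. Of 7 smooth muscle markers, MYH11 and MYOCD had no count in either group and DES and LMOD1 none in DMSO, and the sum was 25.1 to 30.9 CPM in DMSO and 13.2 to 15.2 CPM in MAPKi. Nearly all of this sum was SMTN (27.7 ± 2.92 CPM in DMSO and 12.9 ± 2.07 CPM in MAPKi), while the others were too low to be tested, with means of 0.0875 and 0.544 CPM for ACTG2, 0.246 and 0.366 CPM for SYNPO2, 0 and 0.165 CPM for DES and 0 and 0.0597 CPM for LMOD1 (DMSO and MAPKi). In bulk RNA, fewer cells that express a gene and less of its RNA per cell cannot be told apart.

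The vehicle arm also served as the background of the time courses, and here the YAP targets moved while the contractile genes passed no test. In DMSO, 1 h after vehicle, none of the 8 genes was called (edgeR, 0.0334% of tested genes called in either direction; 4 of the 8 had an unadjusted p under 0.05 and DESeq2 called 0). At 3 h all 4 YAP targets were higher than at 0 h, where 0.723% of tested genes were higher, and at 5 h CCN2, ANKRD1 and AMOTL2 were higher, where 0.582% were. In MAPKi, CCN1 and CCN2 were higher at 1 h, where 0.0803% of tested genes were higher, and CCN1, CCN2 and AMOTL2 were higher at 3 h and at 5 h, where 1.17% and 1.26% were. None of the 8 was called lower at 5 h of vehicle, where 0.482% of tested genes were lower in DMSO and 2.07% in MAPKi, so that 1.06% and 3.34% were called in either direction. All these comparisons share the 0 h vehicle libraries.

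CCN2 rose in DMSO from 18.3, 26.2 and 30.5 CPM at 0 h to 42.3, 45.3 and 52.7 CPM at 1 h, 183, 171 and 205 CPM at 3 h and 129, 138 and 140 CPM at 5 h. In MAPKi it went from 11.4, 11.6 and 8.49 CPM to 49.6, 52.2 and 37.8 CPM at 1 h, 45.3, 64.4 and 62.2 CPM at 3 h and 25.9, 49.0 and 31.3 CPM at 5 h. Thus every later library exceeded every 0 h library of its pretreatment, and only the DMSO libraries went on to a peak above 100 CPM at 3 h. The log2 changes at 1, 3 and 5 h were 0.89, 2.88 and 2.42 in DMSO (edgeR adjusted p 0.618, 4.77e-11 and 1.49e-08) and 2.14, 2.45 and 1.76 in MAPKi (adjusted p 2.89e-05, 7.8e-08 and 0.000192).

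AMOTL2 peaked at 3 h in both pretreatments. It had 45.9, 48.1 and 46.8 CPM at 1 h, 148, 159 and 140 CPM at 3 h and 81.5, 83.2 and 65.6 CPM at 5 h in DMSO, and 98.1, 101 and 92.7 CPM, 232, 164 and 210 CPM, and 130, 168 and 145 CPM in MAPKi. The log2 changes from 0 h were 2.27 at 3 h and 1.30 at 5 h in DMSO (SE 0.19 each, edgeR adjusted p 9.08e-15 and 3.28e-06), and 1.54 and 1.08 in MAPKi (SE 0.18 each, adjusted p 1.85e-09 and 2.17e-05). CCN1 varied more between libraries, with 36.8, 55.7 and 81.1 CPM at 1 h, 54.5, 104 and 155 CPM at 3 h and 15.5, 14.2 and 54.0 CPM at 5 h in DMSO, and 72.8, 26.3 and 105 CPM, 97.4, 35.3 and 124 CPM, and 26.2, 70.5 and 59.5 CPM in MAPKi. Its later libraries lay above those of 0 h in MAPKi, and in DMSO 2 of the 5 h libraries (15.5 and 14.2 CPM) were below the highest 0 h library (16.1 CPM). The log2 changes were 2.54, 3.39 and 1.57 in DMSO (SE 0.59, 0.59 and 0.61, edgeR adjusted p 0.0525, 7.32e-05 and 0.257) and 3.5, 3.82 and 3.09 in MAPKi (SE 0.63 each, adjusted p 0.000789, 1.89e-05 and 0.000907).

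ANKRD1 differed from the other YAP targets in that its level in DMSO was still rising at 5 h. It had 0.415, 2.51 and 1.69 CPM at 0 h, 1.23, 2.32 and 3.51 CPM at 1 h, 12.5, 17.0 and 26.3 CPM at 3 h and 58.8, 58.6 and 46.4 CPM at 5 h, log2 changes of 3.51 at 3 h (SE 0.45, edgeR adjusted p 5.94e-08) and 5.05 at 5 h (SE 0.45, edgeR adjusted p 1.31e-13). In MAPKi it had 1.22, 3.11 and 0.704 CPM at 3 h and 0.143, 2.01 and 2.42 CPM at 5 h, and no time passed the test against 0 h (1.40 at 5 h, SE 0.70, edgeR adjusted p 0.334). The difference of the 5 h changes between pretreatments was −3.66 (SE 0.99, edgeR adjusted p 0.055), and of the 24 differences tested in this way (8 genes, 3 times) none passed, 4 had an unadjusted p under 0.05 and DESeq2 called 0. With a term for the replicate number in the fit, that ANKRD1 difference at 5 h passed (−3.65, edgeR adjusted p 0.0457). Of all tested genes 0.0134%, 0.294% and 0.736% passed at 1, 3 and 5 h. The CCN1 and CCN2 calls at 1 h in MAPKi were lost without replicate 1, although the changes were no smaller, at 3.81 and 2.18 (adjusted p 0.0747 each). Over all tested genes the calls of this comparison fell from 17 to 3 in that fit, which had fewer libraries in each group. Without replicate 3 CCN1 was at 2.76 (adjusted p 0.105). In DMSO the CCN1 change at 1 h, which had missed the threshold, passed with DESeq2 size factors (2.54, adjusted p 0.0448) and in a fit on the compared groups alone (2.54, adjusted p 0.0303).

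**Figure D3:**
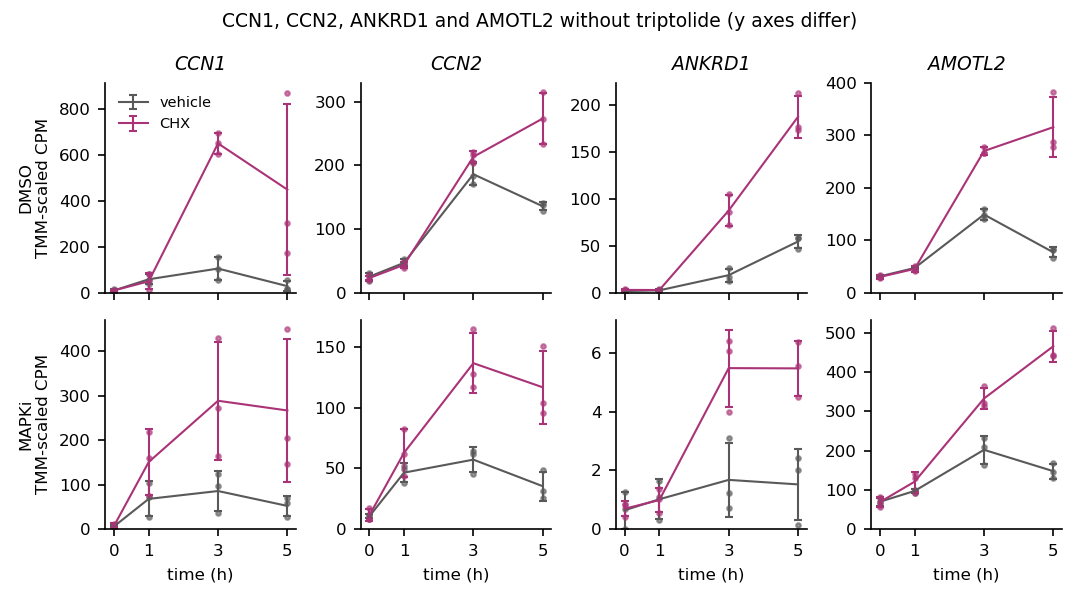
CPM of CCN1, CCN2, ANKRD1 and AMOTL2 against hours (0 to 5 h) in the vehicle and CHX arms, for DMSO and MAPKi; points are libraries, lines join group means and bars are SD (n = 3), and the vertical axes differ between panels. In the vehicle arm ANKRD1 reached 46.4 to 58.8 CPM at 5 h in DMSO and 0.143 to 2.42 CPM in MAPKi, and CHX libraries at 3 and 5 h lay higher for CCN1 and AMOTL2.

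MYLK came nearest to a call among the contractile genes, at 0.84 in DMSO (SE 0.25, edgeR adjusted p 0.0749) and 0.50 in MAPKi (SE 0.16, adjusted p 0.072) at 5 h. It passed in DMSO with DESeq2 (0.84, adjusted p 0.022) and, at 3 h, without replicate 2 (1.09, adjusted p 0.0451), and in MAPKi with library totals in place of TMM (0.56, adjusted p 0.0336) and in the fit on the compared groups (0.50, adjusted p 0.0298). In the 5 h comparison 0.582% of all tested genes were higher in DMSO and 1.26% in MAPKi. Of the other YAP and TAZ target genes 1 of 18 was higher at 5 h in DMSO, LATS2 at 0.87. In MAPKi 3 were, with LATS2 at 1.07, MYOF at 0.63 and PTPN14 at 0.44. Of the other contractile and SRF target genes 2 of 28 were higher in DMSO, the calponin CNN2 (0.77) and vinculin, VCL (0.54), and 6 in MAPKi, led by FHL2 (1.23). WWTR1 was lower at 5 h in both pretreatments, at −0.27 and −0.38.

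The next comparison asked what happened to these transcripts when translation was blocked while transcription ran. At 1 h of CHX none of the 8 genes differed from vehicle by the edgeR test in either pretreatment (0.0803% of tested genes called in DMSO and 0.0736% in MAPKi, of which 0.0602% higher; 0 and 1 of the 8 had an unadjusted p under 0.05, and DESeq2 called 0 in both). Over the mean of 3 and 5 h all 4 YAP targets were higher with CHX in both pretreatments, where 18.3% of tested genes were higher in DMSO and 15.9% in MAPKi. Of the contractile genes, MYLK was lower in DMSO and TPM1 in MAPKi, where 13.5% and 13.9% were lower, which makes 31.7% and 29.9% called in either direction.

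CCN1 had 606, 695 and 653 CPM at 3 h and 171, 306 and 871 CPM at 5 h of CHX in DMSO, each above every vehicle library of the same time, and the log2 change against vehicle was 3.28 (SE 0.38, edgeR adjusted p 1.7e-11). In MAPKi it had 164, 429 and 272 CPM at 3 h and 146, 449 and 205 CPM at 5 h, again above all vehicle libraries of these times, a log2 change of 2.04 (SE 0.36, edgeR adjusted p 3.01e-06). AMOTL2 reached 267, 266 and 278 CPM at 3 h and 288, 278 and 382 CPM at 5 h in DMSO and 313, 364 and 320 CPM and 444, 511 and 442 CPM in MAPKi. For AMOTL2 too the CHX and vehicle libraries did not overlap, with log2 changes of 1.45 (SE 0.13, edgeR adjusted p 2.28e-16) and 1.19 (SE 0.12, adjusted p 7.5e-13). ANKRD1 had 71.9, 86.0 and 105 CPM at 3 h and 177, 213 and 173 CPM at 5 h in DMSO, against 6.09, 6.40 and 3.98 CPM and 6.38, 4.50 and 5.56 CPM in MAPKi. The log2 changes against vehicle were of similar size, 2.01 (SE 0.24, edgeR adjusted p 1.08e-10) and 1.82 (SE 0.34, adjusted p 1.39e-05), although the levels in MAPKi remained below those of DMSO vehicle at the same hours.

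CCN2 had 204, 217 and 220 CPM at 3 h and 234, 273 and 315 CPM at 5 h of CHX in DMSO, where 1 CHX library at 3 h did not exceed the highest vehicle library (205 CPM), and the log2 change was 0.61 (SE 0.19, edgeR adjusted p 0.00969). This call was lost without replicate 1 (0.60, adjusted p 0.113). In MAPKi it had 117, 165 and 128 CPM and 96, 151 and 104 CPM, all above vehicle, a log2 change of 1.49 (SE 0.20, edgeR adjusted p 3.87e-09). CCN2 was the 1 gene of the 8 whose CHX change differed between the pretreatments, by 0.89 on the log2 scale (SE 0.27, edgeR adjusted p 0.0209; higher in MAPKi with 3 of 3 replicate numbers), where 11.2% of tested genes did, 4.64% being higher and 6.59% lower. That difference had an adjusted p of 0.0641 in DESeq2 and of 0.269 without replicate 1 (0.83). At 1 h the CHX change differed between pretreatments for none of the 8 genes (edgeR; 0.0201% of tested genes; 0 had an unadjusted p under 0.05 and DESeq2 called 0). Over 3 and 5 h the differences for CCN1 and TAGLN were −1.24 (SE 0.49, adjusted p 0.0953) and −1.62 (SE 0.65, adjusted p 0.0959) and did not pass.

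MYLK was at 11.2, 7.32 and 11.6 CPM at 3 h and 8.14, 11.2 and 13.1 CPM at 5 h of CHX in DMSO, below every vehicle library of the same time, with a log2 change of −0.60 (SE 0.17, edgeR adjusted p 0.00287). In MAPKi the value was −0.26 (SE 0.12, adjusted p 0.0827), and in the fit on the compared groups it passed (−0.26, adjusted p 0.0174). TPM1 in MAPKi was at −0.24 (SE 0.09, adjusted p 0.0392) and missed the threshold without replicate 1 (−0.32, adjusted p 0.0813), without replicate 2 (−0.08, adjusted p 0.627), with DESeq2 size factors (−0.23, adjusted p 0.0633) and with library totals (−0.14, adjusted p 0.259). ACTA2 in MAPKi had −0.55 (adjusted p 0.12), and −1.0 (adjusted p 0.0169) without replicate 1.

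With CHX present at 3 and 5 h, the pretreatments differed as follows, where 27.9% of tested genes were higher in MAPKi and 31.6% lower. MYLK (5.85), ACTA2 (1.49), TPM1 (0.55) and AMOTL2 (0.43) were higher, CCN2 (−0.93) and ANKRD1 (−4.55, SE 0.28, edgeR adjusted p 8.19e-25) were lower, and TAGLN did not pass (0.69, SE 0.43, adjusted p 0.165; with library totals 1.00, adjusted p 0.0396). CCN1 was lower as well (−0.97, SE 0.34, adjusted p 0.0109), but not in DESeq2 (−0.96, adjusted p 0.118), with library totals (−0.65, adjusted p 0.0901), without replicate 1 (−0.85, adjusted p 0.0978) or without replicate 3 (−0.38, adjusted p 0.378).

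Of the 18 other YAP and TAZ target genes, 7 were higher and 1 lower with CHX at 3 and 5 h in DMSO (median log2 change 0.35, all tested genes 0.01) and 5 were higher and 2 lower in MAPKi (0.02, all tested genes −0.01). NUAK2, a stress-responsive kinase, was higher by 4.4 and 3.98 (DMSO and MAPKi), GADD45A, a growth arrest gene, by 1.64 and 2.30 and LATS2 by 1.43 in DMSO. Of 28 other contractile and SRF target genes, 3 were higher and 6 lower in DMSO and 3 higher and 7 lower in MAPKi. For both lists the shares over all tested genes were 18.3% higher and 13.5% lower in DMSO, and 15.9% and 13.9% in MAPKi. FLNA, the actin cross-linker filamin A, was lower in both, at −0.40 and −0.61, and PPP1R12A, the targeting subunit of myosin phosphatase, was higher in both, at 0.44 and 0.21.

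Decay was followed after triptolide, on a scale set by 36 genes whose share of the library rose in the T arm, since a drug that stops transcription lowers most transcripts and library totals no longer serve as a reference. The initial level was the vehicle arm at 0 h of the same pretreatment. At 1 h of T none of the 8 genes was called in either pretreatment (edgeR; 0.883% and 1.61% of tested genes called in either direction, 0.0602% and 0.0468% as higher; 2 and 3 of the 8 had an unadjusted p under 0.05, and DESeq2 called 0 and 1). Over the mean of 3 and 5 h CCN1, CCN2 and AMOTL2 had fallen in both pretreatments, to a larger extent than the median gene. In DMSO these were the 3 genes lower of 8, where 48.7% of tested genes were lower and the median log2 change was −0.47. In MAPKi MYLK, TAGLN and TPM1 were lower too, which makes 6 of 8, where 56.1% were lower and the median was −0.59. None of the 8 was higher, against 1.3% of tested genes in DMSO and 1.28% in MAPKi.

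CCN2 normalised counts were 142, 191 and 214 initially, 50.2, 84.4 and 15.7 at 3 h and 16.9, 23.5 and 14.4 at 5 h of T in DMSO, and 84.4, 85.9 and 61.4 initially, 13, 16.2 and 10.1 at 3 h and 0, 4.60 and 4.22 at 5 h in MAPKi. All T libraries of these times lay below all initial ones, with log2 changes of −2.58 (SE 0.29, edgeR adjusted p 1.39e-12) and −3.58 (SE 0.41, adjusted p 2.68e-12). AMOTL2 had 244, 232 and 209 initially and 30.1, 40.0 and 36.3 at 5 h in DMSO, and 591, 510 and 434 initially and 83.3, 162 and 72.7 at 5 h in MAPKi. Here too the groups did not overlap, and the log2 changes over 3 and 5 h were −2.02 (SE 0.18, edgeR adjusted p 5.08e-16) and −1.87 (SE 0.16, adjusted p 3.17e-17). CCN1 fell by 3.97 (SE 0.79, adjusted p 1.43e-05) and by 5.00 (SE 1.1, adjusted p 7.12e-05) on the log2 scale, on few reads, with 41 counts over the 6 T libraries of 3 and 5 h in DMSO and 15 in MAPKi. ANKRD1, which was low before T was added, had 69 and 27 counts in these libraries and did not pass (−0.66 and −0.53, adjusted p 0.296 and 0.575). In DMSO it did pass without replicate 1 (−1.96, adjusted p 0.00275) and with the 0 h library of the T arm as the initial level (−1.19, adjusted p 0.0462), and all 3 ANKRD1 libraries at 1 h of T in MAPKi had no count.

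Expressed as the share of the initial level, 10.3% ± 3.13 of CCN2 was left at 5 h of T in DMSO and 4.07% ± 3.61 in MAPKi (SD, n = 3 each), against a median gene at 65.1% ± 1.60 and 59.2% ± 2.36. AMOTL2 had 15.7% ± 2.85 and 20.9% ± 9.52 left, and CCN1 5.20% ± 5.5 and 0.852% ± 1.48. In contrast, 88.1% ± 16.0 and 67.8% ± 12.4 of MYLK and 82.5% ± 5.24 and 81.7% ± 11.6 of TPM1 was left at 5 h. TAGLN in MAPKi stood at 46.5% ± 7.06 and ACTA2 in MAPKi at 48.1% ± 4.27, and no share is given for TAGLN in DMSO or for ANKRD1, whose initial libraries held too few counts. ACTA2 in DMSO had too wide a spread to be read (151% ± 127).

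The falls of contractile genes in MAPKi depended on the scale. MYLK fell by 0.55 on the log2 scale (SE 0.15, edgeR adjusted p 0.00105) and TPM1 by 0.35 (SE 0.12, adjusted p 0.012) with the stable genes, whereas with TMM, which centres the bulk of the transcripts, MYLK was at 0.09 and TPM1 was called in the opposite direction, at 0.30 (adjusted p 0.0343), and with library totals MYLK was at −0.19 (adjusted p 0.309) and TPM1 at 0.01 (adjusted p 0.954). TPM1 was at −0.29 (adjusted p 0.0723) with a wider stable set that had risen at 3 or 5 h. TAGLN fell by 1.20 (SE 0.48, adjusted p 0.0264), a call that was lost with the 0 h T library as the initial level (−0.48, adjusted p 0.466), with TMM (−0.55, adjusted p 0.395), with library totals (−0.83, adjusted p 0.184), without replicate 1 (−1.04, adjusted p 0.136) and without replicate 2 (−1.41, adjusted p 0.0555). In DMSO TPM1 was at −0.26 (adjusted p 0.0792) and passed without replicate 3 (−0.40, adjusted p 0.0386). ACTA2 in MAPKi was at −0.61 (adjusted p 0.092) and passed with the 0 h T library as the initial level (−0.74, adjusted p 0.0461).

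None of the 8 changes after T differed between the pretreatments by the edgeR test of the difference, for which 3.17% of tested genes passed (0 of the 8 had an unadjusted p under 0.05, and DESeq2 called 0). The difference for CCN2 was −1.0 (SE 0.54, 95% interval −2.05 to 0.05), for MYLK −0.41 (−0.94 to 0.12), for AMOTL2 0.16 (−0.33 to 0.65) and for TPM1 −0.09 (−0.44 to 0.25). Of the 18 other YAP and TAZ target genes 10 were lower after T in DMSO and 11 in MAPKi (median −0.62 and −0.51), where 48.7% and 56.1% of all tested genes were. Of the 28 other contractile and SRF target genes 13 and 7 were lower (median −0.24 and −0.16, where all tested genes had −0.47 and −0.59), PPP1R12A with −0.64 and −1.02.

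**Figure D4:**
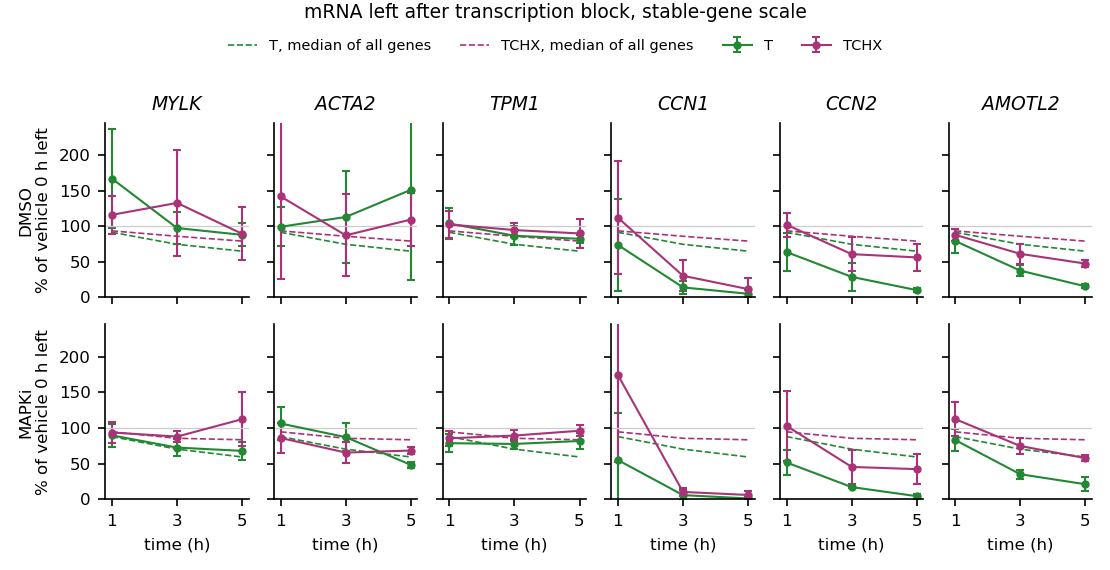
Share of the initial level (vehicle arm, 0 h) left at 1, 3 and 5 h of T or TCHX, in percent on the scale of the 36 stable genes, for DMSO and MAPKi (points are means and bars SD, n = 3; some ACTA2 and CCN1 bars run past the frame), with dashed lines for the median of all tested genes and ANKRD1 and TAGLN left out for their low initial counts. CCN2 fell to 10.3% in DMSO and 4.07% in MAPKi at 5 h of T, and stood at 56.4% and 42.1% with CHX added.

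The addition of CHX to T tests how much of a transcript's loss goes with its translation. Over 3 and 5 h, CCN2 and AMOTL2 were higher in TCHX than in T in both pretreatments, ANKRD1 in DMSO and MYLK in MAPKi, which is 3 of 8 genes in each pretreatment, where 28.4% of tested genes were higher in DMSO and 41.4% in MAPKi. The median log2 difference was 0.23 and 0.34 over all tested genes. At 1 h none of the 8 was called in either pretreatment (edgeR; 0.0401% and 0.368% of tested genes called in either direction; 1 and 3 of the 8 had an unadjusted p under 0.05, and DESeq2 called 0 in both).

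At 5 h the CCN2 normalised counts were 16.9, 23.5 and 14.4 in T and 106, 111 and 77.3 in TCHX in DMSO, and 0, 4.60 and 4.22 in T and 31.8, 55.6 and 14.7 in TCHX in MAPKi. At 5 h the TCHX libraries lay above all T libraries. At 3 h in DMSO the arms overlapped for CCN2, with 82.8, 164 and 82.8 in TCHX and 50.2, 84.4 and 15.7 in T. The CCN2 log2 differences over 3 and 5 h were 1.78 (SE 0.26, edgeR adjusted p 1.87e-08) and 2.49 (SE 0.39, adjusted p 1.05e-07). AMOTL2 at 5 h had 30.1, 40.0 and 36.3 in T and 131, 106 and 91.1 in TCHX in DMSO, and 83.3, 162 and 72.7 in T and 347, 310 and 231 in TCHX in MAPKi, also without overlap. At 3 h in DMSO the AMOTL2 arms overlapped, with the lowest TCHX library at 97.5 and the highest T library at 108. The AMOTL2 log2 differences over 3 and 5 h were 1.15 (SE 0.16, edgeR adjusted p 1.19e-08) and 1.26 (SE 0.14, adjusted p 1.9e-12). ANKRD1 in DMSO had a difference of 1.5 (SE 0.38, adjusted p 0.00125), which was 1.33 (adjusted p 0.0713) without replicate 2 and 1.07 (adjusted p 0.0857) without replicate 3. CCN1, at 0 to 26 counts per TCHX library, did not pass (0.76 and 1.5, SE 1.09 and 1.65). MYLK in MAPKi had 2199, 2654 and 2732 in T and 2898, 4224 and 5521 in TCHX at 5 h, a difference of 0.51 (SE 0.12, adjusted p 0.000343) over both times. For MYLK this call held with the stable genes of the T arm, but not with TMM (0.12, adjusted p 0.444), library totals (0.28, adjusted p 0.0524) or a stable set chosen over both arms (0.28, adjusted p 0.0594).

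A TDD index, for translation-dependent decay, was computed as the level in TCHX minus that in T, divided by the initial level and averaged over 3 and 5 h, so that 0 means no difference and 1 a difference as large as the initial level. It was 0.390 ± 0.0748 for CCN2 in DMSO and 0.332 ± 0.211 in MAPKi, and 0.278 ± 0.0791 and 0.382 ± 0.0858 for AMOTL2 (SD, n = 3). MYLK had 0.184 ± 0.217 and 0.30 ± 0.118 and TPM1 0.0775 ± 0.0790 and 0.131 ± 0.0231. The difference of TCHX minus T between the pretreatments passed the edgeR test for 7.11% of all tested genes and for none of the 8 (0 had an unadjusted p under 0.05, and DESeq2 called 0). The CCN2 difference was 0.71 (95% interval −0.26 to 1.69), that of MYLK 0.40 (−0.02 to 0.83) and that of AMOTL2 0.10 (−0.33 to 0.53).

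Of the other YAP and TAZ target genes 6 of 18 were higher in TCHX than in T in each pretreatment, where 28.4% of all tested genes were in DMSO and 41.4% in MAPKi (median 0.21 in both pretreatments, all tested genes 0.23 and 0.34), GADD45A by 2.25 in DMSO and 3.03 in MAPKi.

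In TCHX, CCN1, CCN2 and AMOTL2 were still lower than initially, with log2 changes of −3.21, −0.80 and −0.87 in DMSO (22.2% of tested genes lower) and −3.5, −1.09 and −0.61 in MAPKi (18.3% lower). This comparison and that of T share the initial libraries. With the 0 h TCHX library as the initial level CCN2 and CCN1 in DMSO had −0.43 (adjusted p 0.29) and −2.26 (adjusted p 0.0563) and CCN2 and AMOTL2 in MAPKi −0.92 (adjusted p 0.0573) and −0.26 (adjusted p 0.377). In DMSO the CCN2 call was lost with TMM (−0.57, adjusted p 0.163), with library totals (−0.64, adjusted p 0.113), without replicate 1 (−0.98, adjusted p 0.0502) and without replicate 3 (−0.54, adjusted p 0.186), and in MAPKi with TMM those of CCN2 (−0.82, adjusted p 0.0844) and AMOTL2 (−0.35, adjusted p 0.142) and without replicate 1 those of CCN1 (−3.48, adjusted p 0.0848), CCN2 (−0.93, adjusted p 0.199) and AMOTL2 (−0.60, adjusted p 0.0728) were. At 5 h of TCHX, 56.4% ± 19.4 of CCN2 was left in DMSO and 42.1% ± 20.8 in MAPKi, and 47.7% ± 5.27 and 57.6% ± 3.90 of AMOTL2 (SD, n = 3), against a median gene at 79.3% ± 1.66 and 83.4% ± 2.02.

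Set against CHX alone at 3 and 5 h, TCHX libraries show how much of the CHX level came with running transcription. All 4 YAP targets were lower in TCHX in both pretreatments, where 42.8% of tested genes were lower in DMSO and 55.5% in MAPKi. The log2 changes in DMSO and MAPKi were −4.19 and −4.98 for CCN2, −4.24 and −3.41 for AMOTL2, −5.59 and −3.63 for ANKRD1 and −9.12 and −9.29 for CCN1 (edgeR adjusted p at most 1.59e-12), the values of CCN1 again on few TCHX reads, 61 and 26 counts over 6 libraries. TPM1 was at −0.32 in both pretreatments (adjusted p 0.00764 and 0.00458) and MYLK at −0.56 in MAPKi (adjusted p 6.59e-05) and −0.34 in DMSO (adjusted p 0.115). These contractile values turned on the scale, since with TMM TPM1 stood at 0.04 in DMSO (adjusted p 0.75) and was called in the opposite direction in MAPKi, at 0.24 (adjusted p 0.0291), and MYLK in MAPKi at −0.25 (adjusted p 0.0635) with library totals. In MAPKi TPM1 also missed the threshold without replicate 1 (−0.18, adjusted p 0.26) and without replicate 3 (−0.28, adjusted p 0.0804), and TAGLN in DMSO passed without replicate 1 (−1.91, adjusted p 0.0128). Of the 18 other YAP and TAZ target genes 14 were lower in each pretreatment (median −1.61 and −0.79, all tested genes −0.34 and −0.52).

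**Figure D5:**
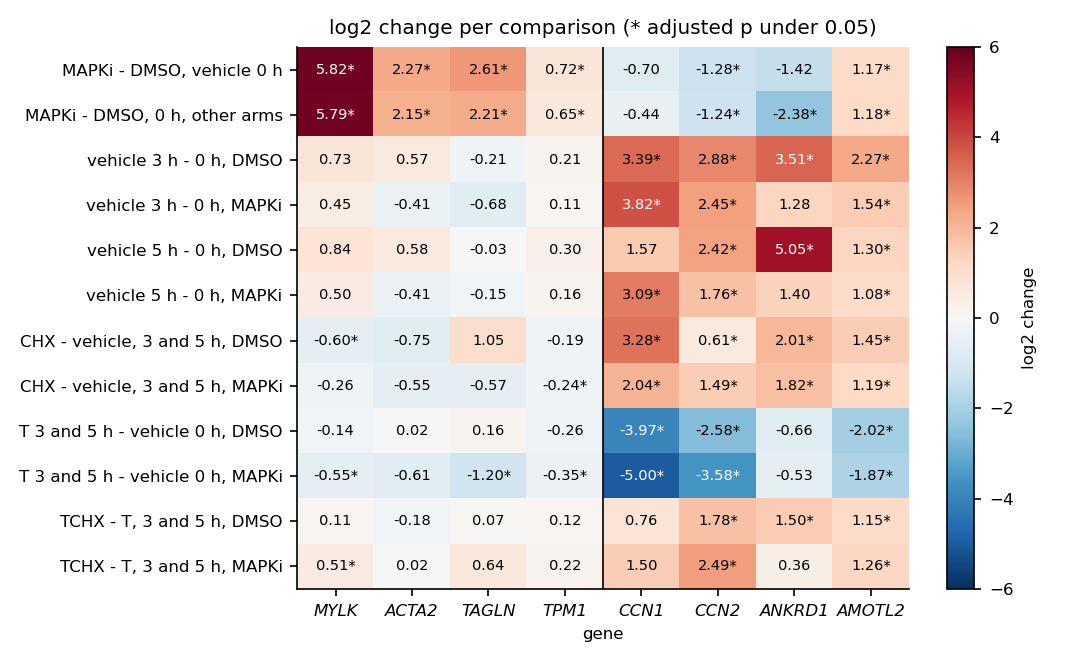
Heat map of log2 changes of the 8 tested genes (columns) in 12 comparisons (rows), coloured from blue for lower to red for higher and printed in each cell, with an asterisk for an edgeR adjusted p under 0.05. The YAP targets were higher with CHX in both pretreatments, CCN1, CCN2 and AMOTL2 were lower after T, and MYLK had 5.82 for MAPKi against DMSO at 0 h.

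Across the 32 group means of log2 CPM the contractile genes resembled each other, with Pearson r from 0.822 (TAGLN and TPM1) to 0.937 (MYLK and ACTA2), as did CCN1 and CCN2 with r of 0.921. Since the pretreatment divides the 32 groups, r was also taken within each pretreatment over 16 groups. There MYLK and ACTA2 had 0.382 in DMSO and −0.415 in MAPKi, whereas CCN2 and AMOTL2 had 0.977 and 0.944 and CCN1 and CCN2 0.926 and 0.973. The groups share treatments and scaling and are not independent samples. The genes most like each member over the 32 groups were MARCKS, ANGPTL7 and CITED1 for MYLK (r of at least 0.994), SESN3, A2M and APOBEC3F for ACTA2, PLCD4, LOC105373250 and PAPLN for TAGLN, and CD59, HOXC-AS1 and ANXA2 for TPM1. For the YAP targets they were CCN2, DUSP1 and RGS2 for CCN1, HBEGF, CCN1 and RGS2 for CCN2, RCAN1, FOXC2 and LHX4 for ANKRD1, and NT5DC3, TSC22D2 and BCL6 for AMOTL2, with r from 0.898 to 0.957.

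Replicate spread differed between the genes and set how firmly each could be read. The median coefficient of variation over groups with more than 3 counts in every library was 8.92% for TPM1, 15.4% for AMOTL2, 15.8% for MYLK, 22.9% for CCN2, 30.5% for ACTA2, 33.0% for TAGLN, 34.4% for ANKRD1 and 48.2% for CCN1. The pentamer ATTTA, a sequence known from unstable transcripts, occurred 4 times in the annotated 3′ untranslated regions of CCN1 and ANKRD1, 3 times in CCN2 and AMOTL2, 17 times in MYLK, once in TPM1 and not at all in ACTA2 and TAGLN, against a median of 2 over 11953 tested genes. Per kilobase this was 4.41 for CCN1, 5.19 for ANKRD1, 2.76 for CCN2, 1.27 for AMOTL2, 4.19 for MYLK and 3.58 for TPM1, with a median of 1.79.

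On GRCh38 the genes lie on 8 chromosomes, and CCN1, ANKRD1 and CNN1 overlap no other annotated gene. MYLK (chromosome 3, 123610049 to 123884332, minus strand) shares exon bases with MYLK-AS1, which had 2 to 5 counts per DMSO and 9 to 14 per MAPKi vehicle library at 0 h, and ACTA2 (chromosome 10, 88935074 to 88991339, minus strand) with FAS and ACTA2-AS1. FAS had 7 to 23 counts in DMSO and 14 to 19 in MAPKi in the same libraries, and ACTA2-AS1 at most 3. TAGLN (chromosome 11, 117199370 to 117207464, plus strand) overlaps PCSK7, TPM1 (chromosome 15, 63042620 to 63071915, plus strand) overlaps TPM1-AS, CCN2 (chromosome 6, 131948176 to 131951372, minus strand) overlaps LINC01013, and AMOTL2 (chromosome 3, 134355347 to 134375479, minus strand) holds the pseudogene RPL39P5. PCSK7 shares exon bases with TAGLN and had 31 to 97 counts in DMSO and 48 to 92 in MAPKi in the 0 h vehicle libraries. TAGLN itself had 3 to 11 and 20 to 49 counts there, and TPM1-AS 0 to 3 and 11 to 20. Whether the counting used the strand is not given in the sources used here, so the division of reads between such neighbours is uncertain. CCN1 lies on chromosome 1 at 85580761 to 85584589 (plus strand) and ANKRD1 on chromosome 10 at 90912096 to 90921087 (minus strand).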

How the data were processed

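QuantSeq 3′ end libraries were made from the cytoplasmic RNA of A375 cells. The authors deposited 1 table of raw read counts per gene, not normalised, for 96 libraries in 32 groups, and the submitters' processing notes name fastp 0.20.1, HISAT2 2.2.1, HTSeq 0.13.5 and GRCh38.p13. The strand setting of the counting is not given in the sources used here. Library totals ran from 2381351 to 12520154 counts.

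Of 44659 gene entries, 14948 passed the low-count filter of edgeR. A single quasi-likelihood model took in all 96 libraries, with 1 mean for each group (R 4.3.3, edgeR 4.0.16), with Benjamini-Hochberg adjustment over all tested genes and a threshold of 0.05. Libraries were scaled by TMM. For contrasts with triptolide they were scaled by DESeq2 1.42.0 size factors over 36 stable genes, which had over 0.2 CPM initially and were at least 1.1 times higher at both 3 and 5 h of T in every replicate. The share of the initial level was taken between libraries of the same replicate number, although it is not known whether the numbers pair samples. No share was computed where an initial library held at most 3 counts. Scripts were tested on simulated counts.

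The genes of the family and the gene lists were chosen with earlier results of these data known, and 17 of the 36 comparisons were added after the data were seen. From each list the 3 called genes with the largest rise and the 3 with the largest fall in a comparison could be named. Alternatives included DESeq2, other scalings, no filter, a replicate block and the omission of each replicate number.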

Additional observations from a re-analysis of the deposited data

Results flagged for a closer look

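The change of CCN2 with CHX over 3 and 5 h differed between the pretreatments by 0.89 on the log2 scale, MAPKi minus DMSO (edgeR adjusted p 0.0209 for the difference itself, higher in MAPKi for 3 of 3 replicate numbers). The changes within each pretreatment were 1.49 in MAPKi and 0.61 in DMSO. DESeq2 gave an adjusted p of 0.0641, and without replicate 1 the difference was 0.83 with an adjusted p of 0.269.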

How the results depend on the processing

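Over 36 comparisons, the number of genes of the family past the threshold was recomputed under 359 alternative settings, of which 328 gave a count within 1.5 times the reported one. In 18 comparisons every setting stayed within that limit, among them MAPKi against DMSO at 0 h, whose 6 calls became 8 without the filter on low counts. Without the filter on low counts the vehicle change at 5 h in DMSO had 5 calls and TCHX minus T at 3 and 5 h in MAPKi 5, T at 1 h 3 in DMSO and 2 in MAPKi, vehicle at 1 h in DMSO 4, TCHX minus T at 1 h in MAPKi 3, the difference between pretreatments 1 at 1 h and 1 at 3 h of vehicle, 2 at 5 h of vehicle, 1 at 1 h and 2 at 3 and 5 h of CHX and 1 for the T change, and CHX at 1 h in MAPKi 1. That fit set each gene's own spread aside, since its prior degrees of freedom were infinite. DESeq2 gave 0 for the difference of the CHX changes at 3 and 5 h and 1 for T at 1 h in MAPKi, which was ANKRD1 with no count in the 3 T libraries. Vehicle at 1 h in DMSO had 1 call with DESeq2 size factors and 1 in the fit on the compared groups.

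Another scale changed the triptolide results the most. For T at 3 and 5 h in MAPKi library totals gave 3 calls in place of 6, and MYLK turned to 0.0919 with TMM and TPM1 to 0.297 with TMM and 0.0127 with library totals. For TCHX minus CHX TPM1 turned to 0.0446 in DMSO with TMM and 0.0356 with library totals and to 0.24 in MAPKi with TMM. TCHX at 3 and 5 h against the initial level had 1 call in DMSO and 1 in MAPKi with the 0 h library of the same arm, and in MAPKi 1 with TMM and 6 with stable genes of T and TCHX at 3 or 5 h, a set of 85 genes chosen after seeing the data, which gave 1 call for T at 1 h in MAPKi. With that set of 85 genes 9206 of all 14948 tested genes were called for TCHX in MAPKi, against 2913 in the reported fit. The planned set, stable in both arms at both times, held 1 gene and was not run. The cause of these shifts was not tested.

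Leaving out 1 replicate number at a time gave 0 to 1 calls for the difference of the CHX changes at 3 and 5 h, 3 to 6 for MAPKi against DMSO at 1 h of vehicle, 0 to 2 for vehicle at 1 h in MAPKi and 0 to 3 for TCHX at 3 and 5 h against the initial level in MAPKi. Over all tested genes 111 of the 359 counts moved by over 1.5 times, in 24 comparisons, such as 40 to 410 genes for the vehicle change at 5 h in DMSO (159 reported) and 1709 to 9206 for TCHX against the initial level in MAPKi (2913 reported).

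Whether the replicate numbers pair the samples is not known. The count columns of same-numbered libraries share a prefix in all groups, which the labels do not explain. Over all tested genes, same-numbered libraries had correlations of their deviations from −0.267 to 0.287 over 496 pairs of groups, with a median of 0.0142. Such values cannot exclude that same-numbered libraries were handled together, and the reported fit had no term for the replicate number. With the replicate block the difference of the CHX changes at 3 and 5 h had 2 calls, with CCN1 added (−1.31, adjusted p 0.0499). Vehicle at 1 h in DMSO had 1, CCN1 (2.57, adjusted p 0.0259), and the difference of the vehicle changes at 5 h 1, ANKRD1 (−3.65, adjusted p 0.0457). At the level of single genes the block also added MYLK for vehicle at 5 h in DMSO (0.86, adjusted p 0.0326) and in MAPKi (0.52, adjusted p 0.0251) and TPM1 for T at 3 and 5 h in DMSO (−0.25, adjusted p 0.042) and for TCHX minus T in MAPKi (0.22, adjusted p 0.0305), and it lost no call. Depth limits CNN1 and MYL9 throughout and CCN1 and ANKRD1 after T, where single libraries held 0 counts.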
